A study of Mus musculus with 16 samples.

Results

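Cholesterol synthesis in the liver was followed through 7 genes, *Hmgcs1*, *Idi1*, *Fdps*, *Fdft1*, *Sqle*, *Lss* and *Cyp51*, chosen by symbol as targets of the transcription factor SREBP2. They are 7 of the 17003 genes listed in the deposited table, and all 7 passed the filter on low values that kept 12770 genes (mean FPKM of 0.1 or more). The 7 were named as genes of cholesterol synthesis and uptake, but each encodes an enzyme of synthesis and none is an uptake gene, so they are called cholesterol synthesis genes here. Liver RNA was sequenced from 16 fed male mice, 8 weeks old and on normal chow, with 1 library per mouse. The 8 *Fgl1* WT mice carried floxed *Fgl1* alleles without Cre (also called LWT), and the 8 *Fgl1* LKO mice were littermates with the same floxed alleles and a Cre transgene under the albumin promoter, which is active in hepatocytes. Other liver cells therefore keep the gene, and whole liver RNA does not separate them from hepatocytes. The comparison asks whether the loss of FGL1, a protein secreted by hepatocytes, goes along with a change in these genes.

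In the mevalonate pathway, acetyl-CoA is built up step by step into isoprenoid units, squalene and finally cholesterol. When sterols are scarce in the membrane of the endoplasmic reticulum, the protein SCAP escorts SREBP2 to the Golgi, where proteases release its active part, which enters the nucleus and switches on the enzymes of the pathway. INSIG proteins hold SCAP back when sterols are plentiful. In mouse liver, the expression of these enzymes is known to change with feeding and with the time of day.

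Libraries were alike in scale. The summed FPKM of a mouse lay between 673153 and 786188, the number of genes above 0 between 14116 and 14407, and the size factor from median ratios between 0.904 and 1.07. Read totals are not given, so the depth and its counting error are unknown. All 6 hepatocyte markers were expressed, with a sum between 53883 and 93960 FPKM. The deleted gene, *Fgl1*, had 504 ± 440.2 FPKM (SD, n = 8) in WT mice and 52.0 ± 30.0 FPKM (SD, n = 8) in LKO mice, without overlap. One mouse stood apart in the genes studied here: WT replicate 8 had the highest summed FPKM, 786188, the lowest size factor, 0.904, and the lowest value of all 7 genes. The main results below are also given without this mouse. The mouse numbers in the labels were grouped here into 4 runs, 36 to 38, 48 to 55, 60 to 64 and 69 to 72. The labels name no runs. LKO replicate 3, number 55, is as far from 50 as from 60, so its place in the second run is a choice. The first run holds 3 WT mice only.

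The 7 genes lie on 6 chromosomes (GRCm39, GENCODE vM39), and all are protein-coding. *Hmgcs1* (NCBI Gene 208715) is at chr13:120151915-120170470 on the plus strand and *Idi1* (319554) at chr13:8935537-8942487 on the plus strand. *Fdps* (110196) is at chr3:89000888-89019213 on the minus strand, *Fdft1* (14137) at chr14:63382189-63417027 on the minus strand and *Sqle* (20775) at chr15:59186869-59203043 on the plus strand. *Lss* (16987) is at chr10:76367298-76392976 on the plus strand and *Cyp51* (13121) at chr5:4123416-4154751 on the minus strand.

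Because the 7 genes varied together across mice, as described below, bases before their RefSeq start sites are shown. RefSeq windows of 250 bases upstream of the annotated start, listed on GRCm38.p6, were found for 4 of the 7 genes, *Hmgcs1*, *Idi1*, *Lss* and *Cyp51*, and each matched GRCm39 once. They were searched on both strands for TCACNCCAC, the core of a sterol regulatory element to which SREBP binds, for CCAAT, to which the SREBP partner NF-Y binds, and for GGGCGG, to which Sp1 binds. The first motif was in 1 of the 4 windows, *Hmgcs1*, against 1.05% of all 32851 windows of this length. CCAAT was in 4 of the 4 windows against 33.8% of all, and GGGCGG in 4 of the 4 against 32.7%. No matches overlapped. A match is a description of letters, not of a bound site. The *Hmgcs1* window is at chr13:120151637-120151886 on the plus strand, and capitals mark its sterol regulatory element from -137 to -129 and its 3 CCAAT matches, which read ATTGG because they lie on the other strand:
Hmgcs1: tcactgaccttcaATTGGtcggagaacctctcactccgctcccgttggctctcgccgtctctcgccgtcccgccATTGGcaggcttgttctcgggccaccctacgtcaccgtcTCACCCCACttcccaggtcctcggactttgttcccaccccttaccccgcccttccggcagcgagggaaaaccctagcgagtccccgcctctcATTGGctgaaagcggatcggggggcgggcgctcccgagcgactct
The windows of *Idi1*, *Lss* and *Cyp51* reach 105, 141 and 54 bases into the gene as GENCODE draws it. All CCAAT matches of these genes lie in that part, so CCAAT was before the GENCODE start in *Hmgcs1* only. For *Idi1*, *Lss* and *Cyp51*, only the bases around CCAAT (capitals, in either orientation) are shown. They run from -55 and from -24 for *Idi1*, from -72 for *Lss* and from -39 for *Cyp51*:
Idi1, chr13:8935587-8935611, plus strand: cctccagctgATTGGcgagcccggg
Idi1, chr13:8935618-8935641, plus strand: ccaaggtgccATTGGctggcgacc
Lss, chr10:76367367-76367391, plus strand: tgatgctctgATTGGccgagctcgc
Cyp51, chr5:4154712-4154736, minus strand: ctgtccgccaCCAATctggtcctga

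All 7 genes had a higher mean in LKO mice than in WT mice, by 1.31-fold (*Fdft1*) to 1.63-fold (*Idi1*), and for none did the difference pass the threshold once adjusted over all genes. In these tests log2(FPKM + 1) was compared with limma, two-sided, and p-values were adjusted over 12770 genes by the Benjamini-Hochberg method, with a threshold of 0.05. Over all genes, 0 (0%) had an adjusted p under 0.05. The deleted gene itself, *Fgl1*, did not pass (log2 fold change -3.11, limma adjusted p = 0.0725), although the genotypes did not overlap. Missing this threshold therefore does not show that a gene is unchanged. Unadjusted, 4 of the 7 genes (*Idi1*, *Fdps*, *Sqle* and *Cyp51*) had p under 0.05 and a higher level in LKO mice, where 4.64% of all genes did so in that direction and 7.01% in either direction. The 7 genes are not independent of one another, so their count does not stand for 7 separate results. The median log2 fold change of the 7 genes was 0.60, from 0.45 to 0.81, against 0.01 over all 12770 genes, of which 55.8% were above 0.

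**Figure D1:**
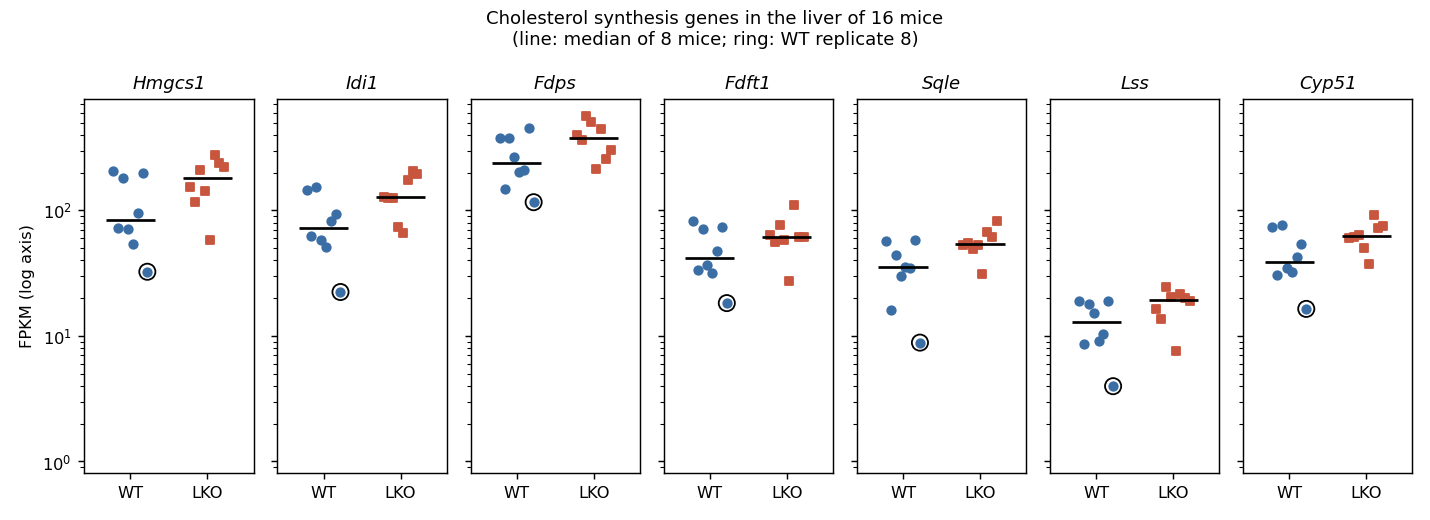
FPKM (log axis) of each gene in the 8 WT mice (circles) and the 8 LKO mice (squares), with the median of each genotype as a line and a ring around WT replicate 8. Each LKO median is above the WT median, the genotypes overlap for every gene, and WT replicate 8 is the lowest mouse in all 7 panels.

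The early steps make the isoprenoid units. *Hmgcs1* encodes the cytosolic HMG-CoA synthase, which makes HMG-CoA. Its lowest, median and highest values were 32.5, 83.6 and 206 FPKM in WT mice and 58.4, 182 and 276 FPKM in LKO mice. WT replicates 1, 3 and 7 had 183 to 206 FPKM, within the range of the LKO mice, and the other 5 WT mice 32.5 to 94.9 FPKM. The log2 fold change was 0.77 (95% interval -0.03 to 1.57, SE 0.38, limma adjusted p = 0.696, exact permutation p = 0.0937). Each exact p between genotypes, here and below, is for the difference in mean FPKM and is not adjusted. *Idi1* encodes isopentenyl-diphosphate isomerase, which interconverts both 5-carbon units of the pathway. It had 22.4, 72.9 and 155 FPKM (lowest, median, highest) in WT mice and 65.5, 127 and 204 FPKM in LKO mice. Only LKO replicates 4 and 5 were below the 3rd highest WT mouse. Its log2 fold change was 0.81 (95% interval 0.10 to 1.52, SE 0.34, limma adjusted p = 0.696, exact permutation p = 0.05004). *Fdps* encodes farnesyl diphosphate synthase, which joins these units and whose product also feeds protein prenylation and other branches. Its values were 116, 239 and 451 FPKM in WT mice and 215, 380.3 and 560.35 FPKM in LKO mice. LKO replicates 3 and 4 were the only mice above the highest WT mouse. The log2 fold change was 0.57 (95% interval 0.01 to 1.13, SE 0.27, limma adjusted p = 0.696, exact permutation p = 0.0870).

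From squalene onward the pathway is committed to sterols. *Fdft1* encodes squalene synthase. It had 18.3, 41.9 and 82.5 FPKM in WT mice and 27.2, 61.3 and 111 FPKM in LKO mice, and only LKO replicate 6 was above the WT range. It had the smallest difference of the 7, a log2 fold change of 0.45 (95% interval -0.16 to 1.06, SE 0.29, limma adjusted p = 0.731, exact permutation p = 0.213). *Sqle* encodes squalene epoxidase, a rate-limiting enzyme of the sterol branch. Its values were 8.85, 35.3 and 57.8 FPKM in WT mice and 31.3, 53.7 and 81.7 FPKM in LKO mice. Among LKO mice, 7 of 8 lay between 49.3 and 81.7 FPKM, and replicate 5 was apart at 31.3 FPKM. Its exact permutation p, 0.0222, was the smallest of the 7 genes, with a log2 fold change of 0.80 (95% interval 0.16 to 1.45, SE 0.31, limma adjusted p = 0.696). *Lss* encodes lanosterol synthase, which closes the sterol rings. It had 3.98, 12.8 and 19.1 FPKM in WT mice and 7.52, 19.4 and 24.4 FPKM in LKO mice, and 4 LKO mice were above the WT range. Its log2 fold change was 0.50 (95% interval -0.07 to 1.08, SE 0.27, limma adjusted p = 0.707, exact permutation p = 0.0960). *Cyp51* encodes the cytochrome P450 that removes a methyl group from lanosterol. Its values were 16.4, 38.9 and 76.3 FPKM in WT mice and 37.4, 62.7 and 92.0 FPKM in LKO mice, with 1 LKO mouse above the WT range. The log2 fold change was 0.60 (95% interval 0.06 to 1.14, SE 0.26, limma adjusted p = 0.696, exact permutation p = 0.0637).

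For every gene, 7 of the 8 LKO mice were above the WT median, and the exception was replicate 5 in each case. Without WT replicate 8, the log2 fold changes were smaller, from 0.27 (*Fdft1*) to 0.57 (*Idi1*) with a median of 0.42. In that fit 1 of the 7 genes had an unadjusted limma p under 0.05 in place of 4, beside 681 of all 12770 genes. With a higher level in LKO mice the share was 2.9% of all genes. Without LKO replicate 5, all 7 had such a p, beside 907 of all genes. Genotype is uneven over the runs of mouse numbers, and with the run added to the fit the median log2 fold change was 0.87. In that fit 4 of the 7 genes and 1032 of all genes had an unadjusted limma p under 0.05. Without WT replicate 8 as well, the median was 0.49 and 2 of the 7 genes had such a p. The number over all genes was not counted for that last fit. Within the runs that hold both genotypes, the median difference was 0.81 in the second run (1 WT and 3 LKO mice), 0.57 in the third (2 and 3 mice) and 1.27 in the fourth (2 and 2 mice). The value of the fourth run rested on WT replicate 8. With WT replicate 7 as its only WT mouse, the median difference was 0.23 and 2 of the 7 genes were lower in LKO mice. These were *Fdps*, with 451 FPKM in the WT mouse and 258 and 300.2 FPKM in the LKO mice, and *Fdft1*, with 73.8 FPKM against 61.1 and 61.6 FPKM. *Lss* was about level there, with 19.1 FPKM against 18.8 and 19.9 FPKM.

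**Figure D2:**
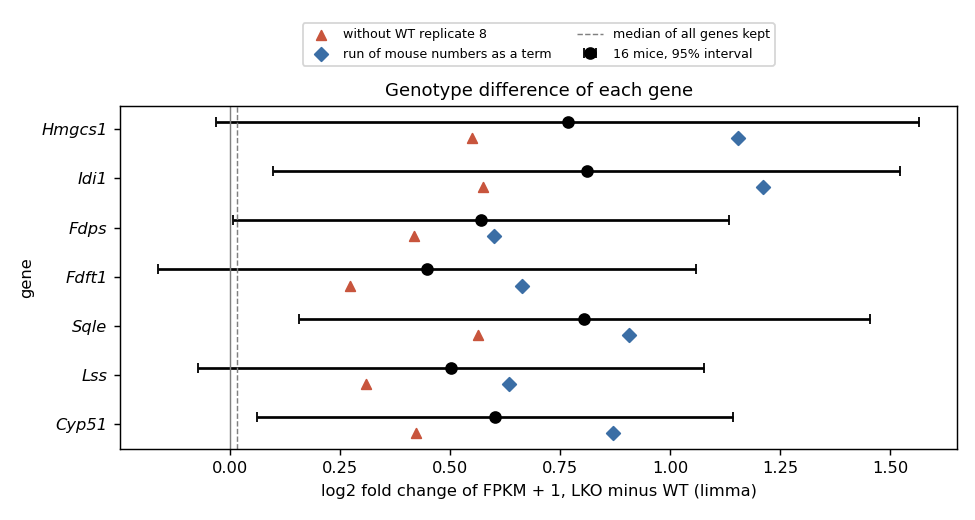
Log2 fold change of FPKM + 1 between genotypes (LKO minus WT) from limma for each gene, with its 95% interval over the 16 mice (circles), without WT replicate 8 (triangles) and with the run of mouse numbers added to the fit (diamonds). All points are above 0, and they lie lower without WT replicate 8 and higher with the run in the fit.

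The 7 genes varied widely between mice of the same genotype. The highest of the 16 mice had 4.82 times the level of the lowest for *Fdps* and 9.24 times for *Sqle*, with the other 5 genes between. The residual SD within a genotype was 0.57 (*Cyp51*) to 0.85 (*Hmgcs1*) on the log2(FPKM + 1) scale, a percentile of 97.6 to 99.3 among all genes kept, whose median was 0.17. The added 1 FPKM narrows the spread of weakly expressed genes, which lowers the median over all genes.

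**Figure D3:**
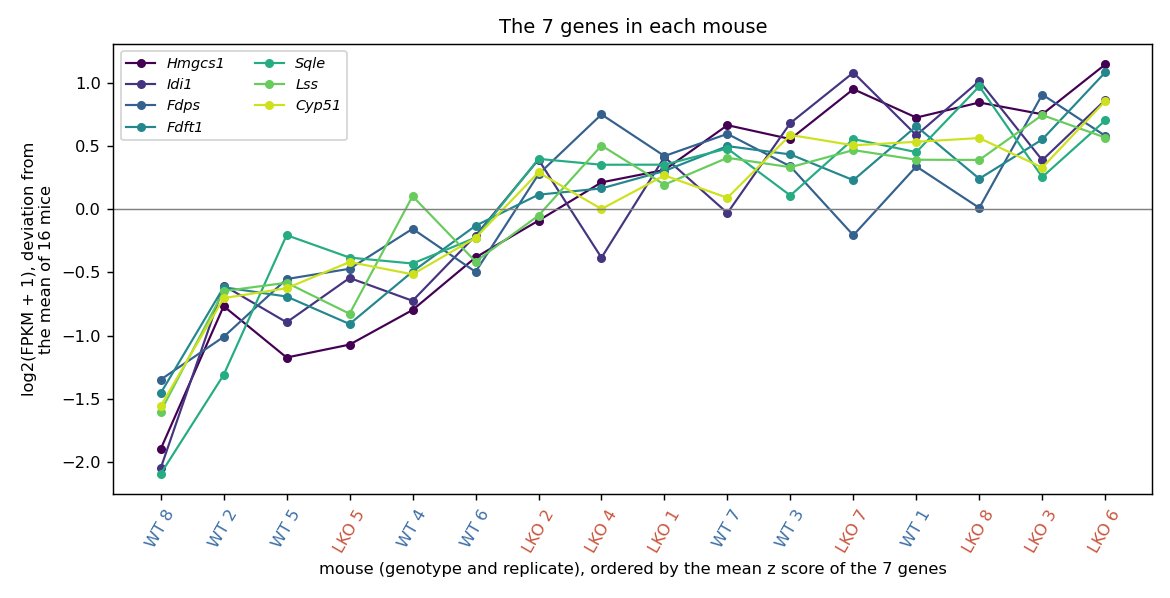
Deviation of log2(FPKM + 1) from the mean of the 16 mice for each of the 7 genes (lines), with the mice ordered by the mean z score of the 7 genes. The 6 mice on the left are below the median of the 16 mice in all 7 genes, and the lines of *Fdps* and *Idi1* lie apart in LKO replicates 4 and 7, in opposite order.

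The 7 genes moved as a block from mouse to mouse. WT replicates 8, 2, 5, 4 and 6 and LKO replicate 5 were below the median of the 16 mice in all 7 genes, whereas WT replicate 1 and LKO replicate 6 were above it in all 7. The lowest mouse was WT replicate 8 in each case. The highest mouse was LKO replicate 6 for 3 genes, LKO replicate 3 for 2, and LKO replicates 7 and 8 for 1 gene each. Over the 16 mice, the 21 pairs of genes had Pearson r between 0.66 (*Idi1* and *Fdps*) and 0.97 (*Idi1* and *Cyp51*), with a median of 0.87, and 21 of 21 passed the threshold (permutation tests with 100000 resamples, two-sided, largest p adjusted over the 21 pairs 0.00476). By Spearman rank correlation the median was 0.82 and 20 pairs passed. The pair that did not was *Idi1* and *Fdps* (rho = 0.47, permutation p adjusted = 0.0665). With genotype means removed the median r was 0.85, and with the means of the runs of mouse numbers removed it was 0.91, with 21 of 21 pairs past the threshold in both. Leaving out for each pair the 2 mice farthest from the median left 20 of 21 pairs and a median of 0.78, with r = 0.40 for *Idi1* and *Fdps* (permutation p adjusted = 0.16). Without WT replicate 8, 20 pairs passed and the median was 0.80.

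The pairs were then taken within each genotype. In the 8 WT mice, 21 of 21 passed, with r from 0.84 to 0.99 (exact permutation tests, largest adjusted p = 0.00789). In the 8 LKO mice, 10 of 21 passed, with r from -0.01 to 0.92 and a median of 0.73. The 4 lowest r of *Fdps* there were -0.01 with *Idi1*, 0.25 with *Sqle*, 0.32 with *Cyp51* and 0.44 with *Hmgcs1*, and its other values were 0.70 with *Fdft1* and 0.71 with *Lss*. In the 8 WT mice the r of *Fdps* with these genes was between 0.84 and 0.96. The WT values rested in part on replicate 8. Without it, 12 of 21 pairs passed in the 7 WT mice left, with r from 0.64 to 0.99 and a median of 0.85 (exact permutation tests, largest adjusted p = 0.12), and the r of *Fdps* lay between 0.72 and 0.96. Whether the correlations differ between genotypes was not tested.

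**Figure D4:**
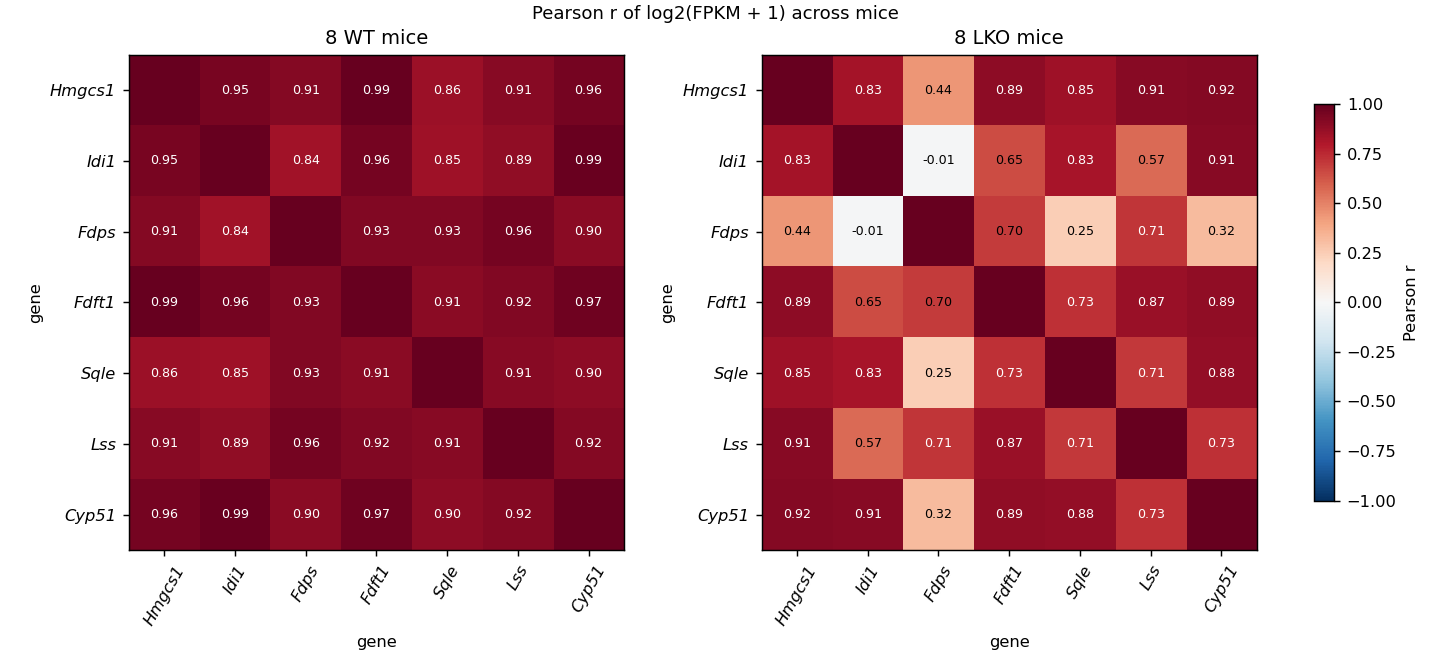
Pearson r of log2(FPKM + 1) for each pair of the 7 genes across the 8 WT mice (left) and the 8 LKO mice (right), with the value in each cell and red for positive r. The WT panel is red throughout (0.84 to 0.99), and the palest cells of the LKO panel are those of *Fdps* with *Idi1*, *Sqle*, *Cyp51* and *Hmgcs1*.

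By mean FPKM, which is scaled to transcript length, the order of the genes was *Fdps* (mean 325 FPKM), *Hmgcs1* (146), *Idi1* (110.3), *Fdft1* (56.9), *Cyp51* (54.6), *Sqle* (46.0) and *Lss* (15.4), and the whole order held in 8 of 16 mice. *Fdps* was above *Hmgcs1*, *Idi1* above *Fdft1* and *Sqle* above *Lss* in 16 of 16 mice, each with an exact paired permutation p of 3.05e-05, the smallest that 16 pairs can give. *Fdft1* and *Cyp51* did not differ beyond their spread (*Fdft1* higher in 10 of 16 mice, ratio 1.03, exact permutation p = 0.474). The other neighbours in the order differed, with exact p-values of at most 0.00245 adjusted over the 6 comparisons. The order was taken from the same 16 mice, so these p-values are no independent test of it.

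Other genes were ranked by their Pearson r with the mean z score of the 7 genes across the 16 mice, as a description of likeness. The 10 highest were *Hsd17b7* (0.95), *Msmo1* (0.94), *Srebf2* (0.94), *Dhcr7* (0.90), *Mvd* (0.89), *Nsdhl* (0.88), *Acat2* (0.88), *Pmvk* (0.87), *Tmco6* (0.83) and *Tmem177* (0.82), among 12763 genes with a median of 0.11 and a range from the 5th to the 95th percentile of -0.42 to 0.54. Of these, 7 were on the list of other enzymes of cholesterol synthesis. *Acat2* makes the acetoacetyl-CoA from which the pathway starts, *Pmvk* and *Mvd* carry mevalonate toward isoprenoid units, and *Msmo1*, *Nsdhl*, *Hsd17b7* and *Dhcr7* work after lanosterol. All points share the same 16 libraries. Without WT replicate 8, the r of these 10 genes was 0.75 to 0.93, 5 of the 10 highest genes were pathway enzymes, 6 of the 10 were shared with the list above, and *Srebf2* was again at rank 3, with a median r over all genes of 0.00. With rank correlation, 2 of the 10 highest genes were pathway enzymes and 3 of the 10 were shared with the list above, while *Srebf2* stayed at rank 3.

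*Srebf2*, the gene of SREBP2 and itself a known SREBP2 target, had 6.51, 14.4 and 20.2 FPKM (lowest, median, highest) in WT mice and 12.5, 17.5 and 24.8 FPKM in LKO mice. Its lowest mouse was WT replicate 8 and its highest LKO replicate 6, the same mice as for *Hmgcs1*, *Fdft1* and *Cyp51*. Its log2 fold change was 0.32 (SE 0.17, limma adjusted p = 0.707), or 0.18 without WT replicate 8. The r of *Srebf2* with each of the 7 genes, a relation chosen after the values were seen, ran from 0.76 (*Fdps*, rho = 0.61) to 0.94 (*Cyp51*, rho = 0.91), and all 7 passed the threshold over the 14 relations computed (permutation tests, largest adjusted p = 0.00108). Leaving out WT replicate 8 and LKO replicate 6, r was 0.62 for *Fdps* and 0.76 to 0.89 for the other 6 genes. With the means of the runs of mouse numbers removed it was 0.81 to 0.96, and with genotype means removed 0.71 to 0.93.

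In the rest of the pathway, the 14 other enzymes had a median log2 fold change of 0.27, with 12 of 14 above 0, against 55.8% of all genes. Of the 14, 0 passed the adjusted threshold. Unadjusted, 3 had a limma p under 0.05 and a higher level in LKO mice, against 4.64% of all genes. The 3 were higher in LKO mice: *Pmvk* (50.3 ± 18.9 against 74.4 ± 20.2 FPKM, SD, n = 8, WT against LKO), *Nsdhl* (43.9 ± 17.9 against 59.1 ± 14.7 FPKM) and *Hsd17b7* (11.1 ± 4.55 against 15.8 ± 4.52 FPKM). *Mvd*, mevalonate diphosphate decarboxylase, had the highest log2 fold change of the 14, 0.76, and the lowest of the 14 was -0.05, for *Sc5d*. Without WT replicate 8, the median log2 fold change of the 14 was 0.18, and *Pmvk* was the 1 gene with an unadjusted limma p under 0.05. In that fit, 2.9% of all genes had such a p and a higher level in LKO mice. The r with the 7 genes was above 0.5 for 13 of 14 enzymes. The exception was *Lbr* (0.33), whose protein also binds the nuclear lamina. Among the lists compared, the median r was highest for this one, 0.84 over the 16 mice and 0.74 without WT replicate 8, where 12 of 14 were above 0.5.

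The 7 regulators of SREBP had 0 genes with an unadjusted limma p under 0.05 and a median log2 fold change of 0.01. Apart from *Srebf2*, their r with the 7 genes was 0.55 for *Scap*, 0.32 for *Insig1*, 0.08 for *Srebf1*, -0.05 for *Mbtps2*, -0.13 for *Mbtps1* and -0.46 for *Insig2*. *Insig1*, whose protein retains SCAP and which is known as an SREBP target, was lower on average in LKO mice (167 ± 58.9 FPKM in WT mice and 138 ± 54.9 FPKM in LKO mice, SD, n = 8), with a log2 fold change of -0.29 (limma adjusted p = 0.806), the opposite sign to the 7 enzymes. *Srebf1* had 60.8 FPKM on average in WT mice and 45.9 FPKM in LKO mice. With WT replicate 8 left out, *Srebf1* had an unadjusted limma p of 0.0283 (adjusted p = 0.893) with a log2 fold change of -0.72, and r was 0.14 for *Insig1* and -0.19 for *Srebf1*. Of the uptake and intracellular transport list, 9 of 10 genes passed the filter, 0 had an unadjusted limma p under 0.05, and the median log2 fold change was 0.01. *Stard4*, which encodes a carrier of cholesterol in the cytosol, had the highest r of that list (0.70), and *Scarb1*, the receptor for high-density lipoprotein, the lowest (-0.04). The r of *Stard4* was 0.50 without WT replicate 8, and the median of the list fell from 0.47 to 0.23. The median of 0.60 for the 7 synthesis genes stands beside 0.01 for the uptake list, and the difference between the lists was not tested.

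**Figure D5:**
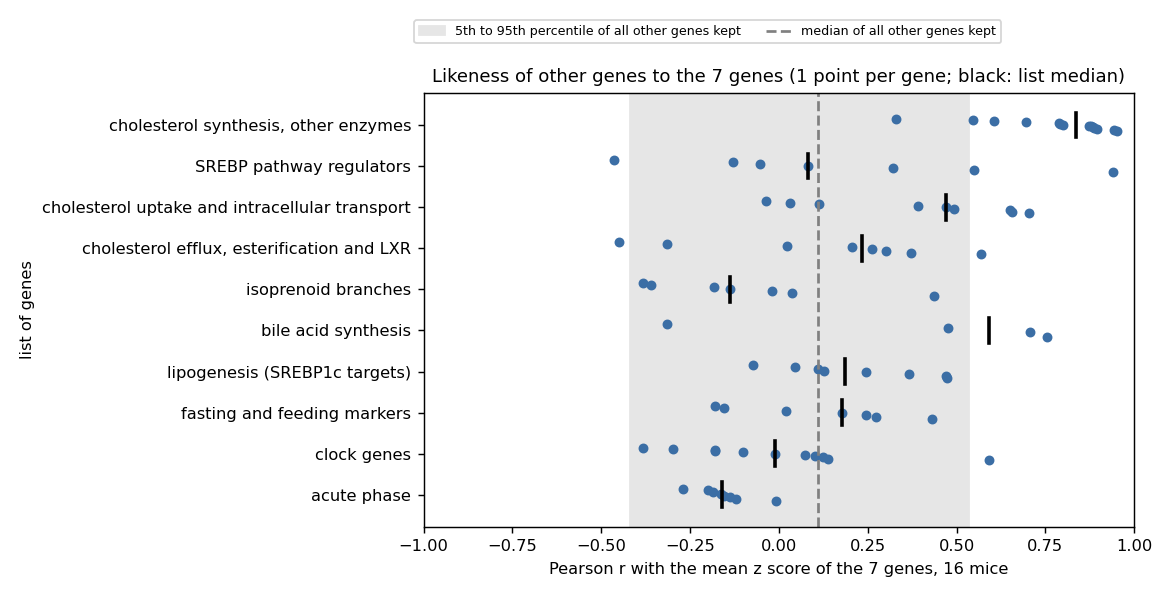
Pearson r across 16 mice between each gene of 10 lists (1 point per gene, black bar for the list median) and the mean z score of the 7 genes, with the 5th to 95th percentile of all other genes kept in grey. The other enzymes of cholesterol synthesis lie farthest to the right (median 0.84), and the isoprenoid, clock and acute-phase lists have medians below 0.

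Among pathways next to synthesis, the efflux, esterification and LXR list had 2 of 8 genes with an unadjusted limma p under 0.05, both lower in LKO mice and 0 past the adjusted threshold. They were *Abcg5* (28.8 ± 7.19 against 20.6 ± 4.89 FPKM, WT against LKO, SD, n = 8) and *Abcg8* (24.2 ± 6.20 against 17.7 ± 5.56 FPKM), which encode both subunits of a transporter that moves sterols into bile. Their r with the 7 synthesis genes was -0.45 and -0.31, and without WT replicate 8 it was -0.33 and -0.29, with *Abcg5* alone under the unadjusted threshold. The background for genes lower in LKO mice at that threshold was 2.36%. The 7 genes of the isoprenoid branches, which draw on the product of *Fdps*, had a median log2 fold change of -0.03 and a median r of -0.14. The 4 bile acid synthesis genes had a median log2 fold change of 0.25 and a median r of 0.59, with 0 past an unadjusted limma p of 0.05. Among them *Cyp7a1*, the rate-limiting enzyme of bile acid synthesis, chosen here after its values were seen, had r = 0.75, and 0.76 without WT replicate 8.

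The time since the last meal and the time of day of each mouse are not given in the sources used here. Lists of genes known to follow them had no genes with an unadjusted limma p under 0.05 between genotypes. The 8 lipogenesis genes had a median log2 fold change of 0.34 and a median r with the 7 genes of 0.19. For the 7 of 8 fasting and feeding markers that were in the table, these values were 0.24 and 0.18, and for the 11 of 12 clock genes -0.06 and -0.01. The 8 acute-phase genes had a median log2 fold change of 0.09 and r between -0.27 and -0.01. The median r without WT replicate 8 was 0.05 for lipogenesis, 0.02 for fasting and feeding, 0.23 for clock and -0.16 for acute-phase genes. The part of meal, hour and inflammation in the spread of the 7 genes was not tested.

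Markers of other liver cells were compared as lists because fewer cells of a type and less RNA per cell cannot be told apart in whole liver. Of 5 Kupffer cell markers, 5 had a higher fitted level in LKO mice, 2 with an unadjusted limma p under 0.05 (*Vsig4*, 11.9 ± 2.80 against 15.8 ± 4.31 FPKM, and *Adgre1*, 3.66 ± 1.01 against 5.16 ± 1.64 FPKM, WT against LKO, SD, n = 8) and 0 past the adjusted threshold. Their sum ranged from 51.7 to 108 FPKM in WT mice and from 63.3 to 137 FPKM in LKO mice. Their r with the 7 genes was between 0.11 and 0.39, or 0.23 to 0.54 without WT replicate 8. *Vsig4* alone was under the unadjusted threshold without that mouse. Over all genes, 55.8% had a higher fitted level in LKO mice. The share that was also under the unadjusted threshold was 4.64%, or 2.9% without WT replicate 8. The 6 hepatocyte, 5 sinusoidal endothelial, 5 stellate, 2 lymphocyte, 3 neutrophil, 4 cholangiocyte and 1 adipocyte markers kept had 0 genes under that threshold. Their median log2 fold changes were -0.07, 0.02, -0.09, -0.02, 0.18, 0.16 and 0.64, and the summed adipocyte markers stayed at or below 7.04 FPKM, with 1 of the markers listed at 0 in all mice. The part of these cells in the difference between genotypes was not tested.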

How the data were processed

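Poly-A RNA of 16 livers was sequenced on the DNBSEQ platform from stranded libraries. Per the labels and the methods of the study, the authors filtered the reads and used HISAT (genome, mm39) and Bowtie2 (reference genes) for alignment. The counting step, software versions and annotation are not given in the sources used here. The authors deposited FPKM, already scaled to transcript length and library size and written with 2 decimals and a decimal comma. FPKM are not counts, so no count model was used. Groups are the genotypes that the labels give, and no libraries were identical. The members and lists of genes were chosen with earlier results of these data known.

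Values were compared as log2(FPKM + 1) with limma 3.58.1 (R 4.3.3; lmFit, eBayes with trend), two-sided, for genes whose mean FPKM was 0.1 or more, with a threshold of 0.05 on Benjamini-Hochberg adjusted p-values. A fold change on this scale understates that of weakly expressed genes. Single genes were also tested by exact permutation over the 12870 splits of the mice (smallest p 0.000155). That test compared mean FPKM between genotypes, and its p was not adjusted. Correlations were tested by 100000 permutations (smallest p 1e-05), or exactly within a genotype. Other steps ran in Python 3.11.15 (pandas 2.3.3, numpy 2.4.6, scipy 1.17.1). The limma fit, the exact test between genotypes and the permutation test of correlations were tested on simulated data. Each library is 1 mouse, and p-values measure the spread between these mice.

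Named were the 7 genes, *Fgl1*, any gene of the regulator, uptake and other-enzyme lists, genes of other lists with an unadjusted p under 0.05 or among the 3 highest in FPKM, the 10 genes most like the 7, and the gene pairs with the highest and lowest r; others are said to be chosen after their values were seen. Alternatives were pseudocounts of 0.1 and 0.01, other filters and scalings, the run of mouse numbers, a replicate block, array weights, robust empirical Bayes, a rank-sum test and leaving out each mouse. The deposited table held no column of other samples. The methods of the study give 7 mice per genotype and elsewhere 8. All 16 were used.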

Additional observations from a re-analysis of the deposited data

Results flagged for a closer look

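*Srebf2* in WT replicate 8 was the lowest of its genotype, 6.51 FPKM against 12.1 FPKM in the next mouse, and the gap was 0.54 of the range of log2(FPKM + 1) in the 8 WT mice, above the 95% limit that Dixon's test sets for 8 values. It was looked for in 24 genes and both genotypes, 48 groups in all, of which chance gives about 2.4, and 1 was found. The same mouse was the lowest of all 16 for the 7 cholesterol synthesis genes, but its gap to the next mouse did not pass the limit for any of them. Its size factor was 0.904, the lowest of the 16, and its *Fasn*, 17.6 FPKM, was also the lowest. The part of library scaling in this value was not tested.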

How the results depend on the processing

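No gene of the 7 passed the adjusted threshold under any of the 29 alternatives, and none changed sign in the 28 that give a fold change. The median log2 fold change of 0.60 ranged from 0.45 to 0.87 with other settings and from 0.42 (without WT replicate 8) to 0.73 across the fits that each left out a mouse. The number of the 7 with an unadjusted p under 0.05, 4 in the reported fit, was 1 without WT replicate 5, WT replicate 8 or LKO replicate 6, with array weights and with the exact rank-sum test, 2 without WT replicate 2 or 4 or LKO replicate 7 or 8, 6 with the replicate block and without WT replicate 1 or 7, and 7 without LKO replicate 5 or without the first run of mouse numbers. Over all genes, 895 had an unadjusted p under 0.05 in the reported fit. The number over all genes was 681 to 1233 where 1 of the 7 did, and 624 to 930 where 2 did. It was 772 to 974 where 6 did, and 814 and 907 where all 7 did. The cause of these changes was not tested. Over all genes, 1 gene, *Fgl1*, passed in place of 0 when each mouse was rescaled to the same sum (adjusted p = 0.0372 from limma), with the run of mouse numbers in the fit (0.025), without the first run (0.0453) and with the replicate block (0.0197), and 0 passed without any one mouse. Same replicate numbers did not mark pairs of mice: deviations correlated above 0.1 in 3 of 8 same-numbered pairs, from -0.16 to 0.45, and 2 of 8 WT mice correlated best with their own number. The block changed no call among the 7 genes. The pairs of genes past the threshold fell from 21 to 10 in the LKO mice only, where each test has 8 mice. They numbered 20 to 21 without any one mouse. Of the 10 genes most like the 7, pathway enzymes numbered 2 by Spearman rank correlation in place of 7. Chosen after the values were seen, leaving out WT replicate 8 moved the median difference in the fourth run of mouse numbers from 1.27 to 0.23, the pairs of genes past the threshold in WT mice from 21 to 12 and the pathway enzymes among the 10 most like genes from 7 to 5. The read depth is unknown, so no floor can be given for low values.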

Other observations

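*Fdps* and *Idi1*, which act one after the other in the pathway, were the pair that varied least together, and their ratio was compared with *Fasn*, the fatty acid synthase, after the values were seen. The ratio of *Fdps* to *Idi1* in FPKM ran from 1.26 in LKO replicate 7 and 1.54 in LKO replicate 8 to 6.85 in LKO replicate 4, which had the highest *Fasn* of all mice, 292 FPKM. The next ratio was that of WT replicate 8, 5.19, the mouse with the lowest *Fasn*, 17.6 FPKM, so the order of the ratio does not follow *Fasn* throughout. Across the 16 mice *Fasn* had r = 0.72 with *Fdps* (rho = 0.62, permutation p adjusted over 14 relations = 0.00291 and 0.0233) and r = 0.65 with *Lss* (rho = 0.44, permutation p adjusted = 0.0107 and 0.138), so that *Lss* passed by r and not by rank. For the other 5 genes r was 0.19 to 0.45 and did not pass. Without the 2 mice farthest from the median of *Fasn*, LKO replicates 3 and 4, r was 0.61 for *Fdps* and 0.60 for *Lss* (permutation p adjusted = 0.0333 and 0.0400). With genotype means removed it was 0.71 and 0.63, and with the means of the runs of mouse numbers removed 0.67 and 0.66. Without WT replicate 8, r was 0.60 for *Fdps* (permutation p adjusted = 0.0313) and 0.47 for *Lss*, which no longer passed (permutation p adjusted = 0.114). Whether *Fdps* differs from the other genes in this relation was not tested.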
